A study of Mus musculus with 10 samples.

Results

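The wells described here are Lgr5-negative crypt cells rich in transcripts of S-phase and G1/S genes: 120 of the 1434 sorted wells that held at least 2000 transcripts, and of 1818 such wells in the whole series. They were chosen by their own transcripts, and DNA content was not measured. Sorted wells with no Lgr5 transcript (the receptor that marks crypt-base stem cells), no Atoh1 transcript (the factor that commits crypt cells to secretory fates) and under 2% of transcripts from 6 goblet cell genes (Muc2, Fcgbp, Zg16, Clca3, Tff3 and Agr2) left 576 eligible wells. The 120 of these with the largest share of 10 G2 and mitosis genes (Ube2c, Ccna2, Cdk1, Birc5, Nusap1, Ccnb1, Cdca3, Plk1, Cdc20 and Aurka) were set aside as G2/M wells. Of the rest, the 120 with the largest share of 11 S-phase genes (Mcm2 to Mcm7, Cdt1, Ccne1, Uhrf1, Hells and Pcna) are the S-phase wells, and 336 wells remained.

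All wells came from small intestinal crypts of C57Bl/6 mice, with no treatment named and with neither age nor sex given in the sources used here. Single cells from dissociated crypts were sorted into 7 plates of 384 wells, 5 coded GK5a and 2 coded GK5b in their titles. The GK5b titles end in different letters, G for replicate 6 and L for replicate 7, which the titles do not explain. A further 3 plates, coded JC, held doublets or triplets that were picked after a milder dissociation. Each plate was read as 1 library. Messenger RNA was read by CEL-seq2, which primes on the poly(A) tail and labels single molecules by barcodes, so that each value is an estimated number of transcripts of a gene in a well. No label ties a plate to an animal, so p-values below measure the spread between libraries.

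In the crypt, stem cells at the base give rise to transit-amplifying progenitors that divide several times before they leave the cycle as enterocytes or secretory cells. Entry into S phase is driven by cyclin E and E2F transcription factors, which switch on genes for licensing factors, the MCM helicase, polymerases and nucleotide synthesis. Genes for the spindle and for mitotic exit are switched on later, many of them through a promoter element called CHR (the cell cycle genes homology region).

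The promoters of 5 cell-cycle genes are printed as examples that hold one of the 2 elements. Mcm5 and Mcm6 code for helicase subunits and helped to choose the wells. Dtl codes for the receptor of the ligase that destroys Cdt1, and Cdc6 for a licensing factor; both were higher in S-phase wells than in G2/M wells. Fam83d codes for a spindle protein and was lower. Each line gives 160 bases up to the annotated start, from RefSeq on build GRCm38.p6, read along the gene's strand. Capitals mark E2F forms (TTTCCCGC, TTTCGCGC, TTTGCCGC or TTTGGCGC) in the first 4 and a CHR form (TTTGAA or TTCGAA) in Fam83d, on either strand.
Mcm5, chr8:75109349-75109508, plus strand: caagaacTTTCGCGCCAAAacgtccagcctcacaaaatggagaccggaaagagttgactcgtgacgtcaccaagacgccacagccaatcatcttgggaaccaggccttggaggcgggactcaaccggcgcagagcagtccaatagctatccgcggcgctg
Mcm6, chr1:128359706-128359865, minus strand: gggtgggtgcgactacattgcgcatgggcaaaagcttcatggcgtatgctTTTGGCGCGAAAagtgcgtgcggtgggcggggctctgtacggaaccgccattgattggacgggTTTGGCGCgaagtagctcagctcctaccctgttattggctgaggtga
Dtl, chr1:191575545-191575704, minus strand: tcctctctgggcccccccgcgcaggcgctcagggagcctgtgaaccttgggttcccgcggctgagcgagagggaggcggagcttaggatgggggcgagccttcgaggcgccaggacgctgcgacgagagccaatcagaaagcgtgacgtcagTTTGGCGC
Cdc6, chr11:98907991-98908150, plus strand: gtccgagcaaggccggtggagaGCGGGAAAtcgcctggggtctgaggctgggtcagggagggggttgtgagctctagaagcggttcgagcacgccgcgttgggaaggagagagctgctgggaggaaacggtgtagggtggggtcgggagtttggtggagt
Fam83d, chr2:158767939-158768098, plus strand: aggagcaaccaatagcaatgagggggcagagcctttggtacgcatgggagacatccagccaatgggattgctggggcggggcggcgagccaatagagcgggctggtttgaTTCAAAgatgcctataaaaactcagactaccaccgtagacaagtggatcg
In Mcm5 and Mcm6, 2 E2F forms on opposite strands overlap. The Mcm5 pair starts at position -153 from the transcript start and that of Mcm6 at position -110, with a further form in Mcm6 at position -47. The single form of Dtl ends right at the start. The printed genes were picked for holding a form. Of the others searched, Ung, Tcf19, E2f1, Msh6, Mcm3, Cdt1 and Ccne1 held no E2F form in the 250 bases before the start, and Hmmr, Cenpa, Cenpf and Aspm held no CHR form. Uhrf1 held 1 E2F form before 1 of its 2 annotated starts, outside the 160 bases.

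Over all 27025 genes in the promoter table, 2.16% held an E2F form and 19.6% a CHR form in the 250 bases before a start. Of the genes tested between S-phase and remaining wells, 5243 had an entry, and 4.33% of these held an E2F form and 14.4% a CHR form. Of the selecting S-phase genes, 5 of 10 with an entry held an E2F form. Of the 95 genes called higher in S-phase wells than in G2/M wells by the test described below, 69 had an entry, of which 13.04% held an E2F form and 15.9% a CHR form. Of the 189 called lower, 139 had an entry, of which 5.04% held an E2F form and 45.3% a CHR form. The shares over all genes tested against G2/M wells were not counted. Of the genes called higher in S-phase than in remaining wells, 818 had an entry, of which 8.56% held an E2F form and 17.6% a CHR form. Of those called lower than in remaining wells, 1232 had an entry, of which 2.35% held an E2F form and 15.3% a CHR form. Among the 48 other replication genes, 8 of 37 with an entry held an E2F form (21.6%). So did 3 of 20 genes of DNA repair and checkpoint control (15.0%). Of the nucleotide synthesis genes only 1 of 26 did (3.85%), which is no more than among tested genes. These are counts of letters, and a gene with several annotated starts had several chances to hold them.

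The selecting genes make the S-phase wells what they are, so their levels are given without a test. The 11 genes made up a median 0.372% of the transcripts of an S-phase well, 0.083% of those of a G2/M well and 0.029% of those of a remaining well. The lowest share among S-phase wells was 0.2144%, and the highest among remaining wells was 0.2134%, so the boundary runs through a continuous range. Pcna, the sliding clamp of the replication fork, supplied 36.5% of the 11 genes' transcripts in S-phase wells, and Mcm6 supplied 15.2%.

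**Figure D1:**
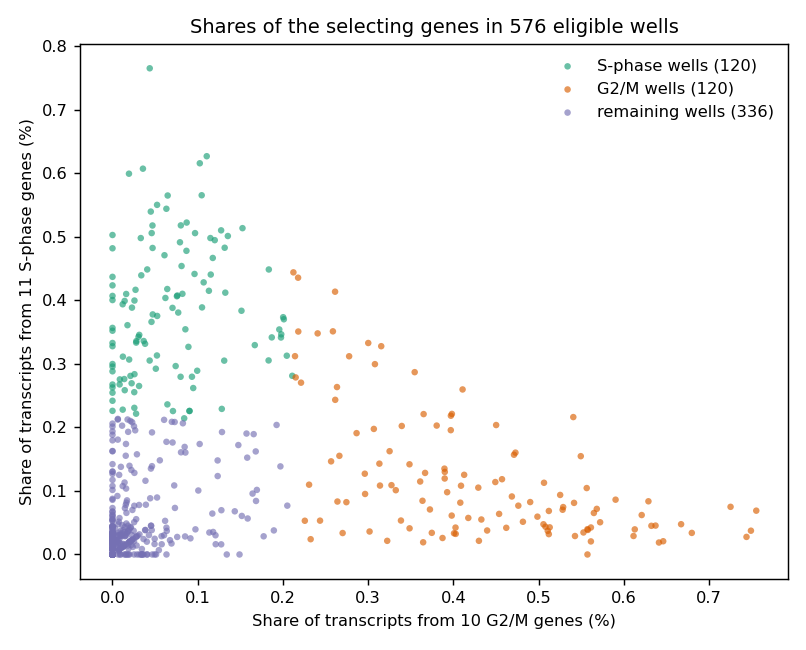
Each point is 1 of the 576 eligible sorted wells; the x axis gives the percent of its transcripts from the 10 G2/M genes and the y axis the percent from the 11 S-phase genes. The 120 S-phase wells lie above 0.214% on the y axis and below 0.212% on the x axis, with no gap between them and the 336 remaining wells.

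The 6 marker genes of S-phase progenitors all stood higher in the S-phase wells of each library than in its remaining wells. In the paragraphs below, levels are in CPM (counts of transcripts scaled to a common library total) after summing the wells of a class in a library, given as the lowest, median and highest of the 6 libraries with at least 3 wells in each class. Mcm6 stood at 551, 570 and 613 CPM in S-phase wells, at 78.6, 168 and 259 CPM in G2/M wells and at 25.1, 77.8 and 111 CPM in remaining wells. Cdt1, which loads the helicase and is destroyed once S phase is under way, stood at 252, 291 and 345 CPM in S-phase wells, at 27.3, 49.8 and 78.6 CPM in G2/M wells and at 25.1, 40.5 and 52.1 CPM in remaining wells. Its levels in G2/M and remaining wells overlapped, whereas those of Uhrf1, a reader of hemimethylated DNA, did not: 87.2, 159 and 223 CPM in S-phase wells, 50.7, 62.1 and 82.1 CPM in G2/M wells and 1.76, 8.52 and 18.1 CPM in remaining wells. Ccne1 (cyclin E1) stood at 69.1, 76.6 and 168 CPM in S-phase wells, at 13.8, 19.4 and 28.6 CPM in G2/M wells and at 1.76, 4.04 and 5.56 CPM in remaining wells.

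Single wells show how sparse these counts are. When each well was thinned to 2000 transcripts, Pcna was seen in 93.3% of S-phase wells, 40.8% of G2/M wells and 29.8% of remaining wells, while Ccne1 was seen in 10.0%, 0.833% and 1.49% of them. In the 158 wells with at least 10% goblet transcripts, whose median depth was 9072 transcripts, Pcna was seen in 15.2% and Ccne1 in none. A median S-phase well showed 4 of the 11 genes after thinning. Depth differed by class: the median well held 8326 transcripts in S phase, 14111 in G2/M and 7261 among remaining wells.

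S-phase wells were found in all 7 sorted libraries but not evenly. In GK5a replicates 1 to 5 they were 21 of 80, 15 of 101, 26 of 100, 25 of 104 and 17 of 99 eligible wells. In GK5b they were 2 of 23 in replicate 6 (8.70%) and 14 of 69 in replicate 7 (20.3%). Replicate 6 had an exact 95% interval of 1.07% to 28.04% (counting error only), and 202 of its 256 wells of at least 2000 transcripts held Atoh1 transcripts. It enters no test below, so that code GK5b is represented by replicate 7 alone.

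**Figure D2:**
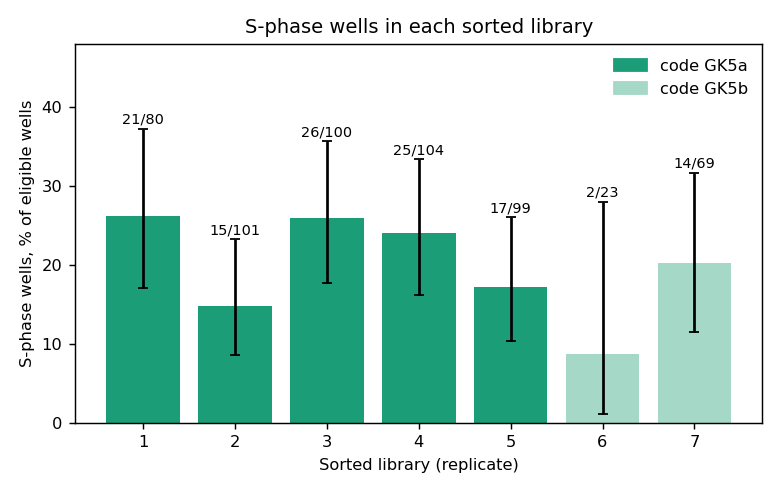
Bars give the S-phase wells as a percent of eligible wells in each sorted library, with the counts above them and exact 95% binomial intervals as error bars (counting error only). Replicate 6 stands lowest at 8.70%, with an interval that reaches 28.04% and overlaps those of the other 6 libraries.

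Membership depended on the gates as well as on the S-phase genes. Of 290 sorted wells at or above the S-phase share, 120 are the wells described here, 21 were G2/M wells and 149 failed a gate. Lgr5 transcripts were present in 103 of the 290. Since a well can hold Lgr5 mRNA that was not captured, the Lgr5-negative gate is a limit on detected transcripts.

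The first comparison asks what else set S-phase wells apart from the eligible wells that fell in neither class, which need not have been out of both phases. S-phase wells had more mRNA for the rest of the replication fork, for nucleotide synthesis, DNA repair and chromatin assembly, and for ribosomes and crypt-base genes. Genes high in remaining wells, such as enterocyte products and the CDK inhibitors Cdkn2b and Cdkn1a, were low in S-phase wells. Many of these passed the filter on low values through the remaining wells alone. Other genes, such as Ung and E2f1, passed it through the S-phase wells alone. Counts of list members called higher or lower carry that limit. Of 6877 genes outside the selection, 1070 were higher (15.6% of those tested) and 1621 were lower (23.6%), by limma on log2(CPM + 10) with the library as a block at an adjusted p under 0.05. Unless a count is given, each gene given with an adjusted p that passed had its direction in 6 of 6 libraries. Over the 6 libraries, 16.2% of all tested genes had no overlap between the classes. Among them were 467 genes called higher and 634 called lower. The median log2 difference over all tested genes was -0.09, and with library totals in place of TMM scaling it was 0.04, which turned the split to 1387 higher and 1224 lower. Because the wells were divided by S-phase transcripts, any gene that varies with those across wells is bound to differ, and the test speaks only to whether the difference recurs from library to library.

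Nucleotide supply held the gene with the largest rise. Rrm2, the regulated subunit of ribonucleotide reductase, stood at 183, 239 and 337 CPM in S-phase wells, at 85.4, 148 and 213 CPM in G2/M wells and at 4.17, 11.7 and 18.1 CPM in remaining wells. S-phase and remaining wells did not overlap, and the log2 difference between them was 3.48 ± 0.19 (SE, adjusted p = 2.79e-09). Dut, which clears dUTP, stood at 255, 357 and 399 CPM in S-phase wells and at 25.1, 35.3 and 50.7 CPM in remaining wells (log2 difference 2.75 ± 0.16, adjusted p = 6.04e-09). Of the 29 tested genes of nucleotide synthesis, 25 were higher and none lower, with a median log2 difference of 1.28. Tk1 (thymidine kinase) and Rrm1 were among the 25.

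Replication machinery that had no part in choosing the wells followed the same order. Of 48 listed genes, 41 passed the filter on low values, 40 were higher and none lower, and their median log2 difference was 1.59. Members that passed through the S-phase wells alone, such as Cdc6, were bound to be high there. Lig1, which joins Okazaki fragments, stood at 191, 224 and 298 CPM in S-phase wells, at 92.9, 132 and 202 CPM in G2/M wells and at 15.4, 22.3 and 26.8 CPM in remaining wells. S-phase and remaining wells did not overlap (log2 difference 2.80 ± 0.18, adjusted p = 1.29e-08). Rpa2, a subunit of the single-strand binding complex, stood at 141, 169 and 196 CPM in S-phase wells, at 60.2, 78.3 and 95.5 CPM in G2/M wells and at 3.56, 21.2 and 29.6 CPM in remaining wells, so that all 3 classes were separate. The 48 genes together made up a median 0.382% of transcripts in S-phase wells, 0.231% in G2/M wells and 0.068% in remaining wells, and 105 of the 120 S-phase wells lay above the 90th percentile of remaining wells.

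Regulators of S-phase entry rose with the machinery. Of 20 listed G1/S cyclins, kinases and E2F factors, 15 passed the filter on low values, 11 were higher and none lower. Members that passed through the S-phase wells alone, E2f1 among them, were bound to be high there. E2f1, an activator of S-phase genes, stood at 36.3, 65.3 and 86.9 CPM in S-phase wells and at 0, 3.19 and 7.06 CPM in remaining wells (log2 difference 2.40 ± 0.25, adjusted p = 2.42e-06). E2f8, a repressor of the same family, differed by 2.99 ± 0.25 (adjusted p = 2.12e-07), and Tcf19 by 3.04 ± 0.22 (adjusted p = 4.23e-08). Each was higher in 6 of 6 libraries.

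Members of the CDK inhibitor list differed in direction. Cdkn2b passed the filter on low values through the remaining wells alone, and Cdkn2c through the S-phase wells alone. Each was bound to be high where it passed, so their opposite directions are no support for a split within the family. Cdkn2b, the INK4 inhibitor p15, stood at 4.07, 8.55 and 21.6 CPM in S-phase wells, at 23.8, 50.3 and 122 CPM in G2/M wells and at 118, 179 and 253 CPM in remaining wells. S-phase wells lay below both other classes in every library (log2 difference to remaining wells -3.42 ± 0.18, adjusted p = 2.79e-09). Cdkn1a (p21) was also lower, at 8.13, 36.1 and 46.8 CPM in S-phase wells and 159, 227 and 287 CPM in remaining wells (log2 difference -2.66 ± 0.23, adjusted p = 2.38e-07). In G2/M wells it ran from 11.2 to 49.7 CPM and overlapped the S-phase wells. Cdkn2c (p18), of the same family as p15, went the other way, at 27.2, 39.2 and 120 CPM in S-phase wells and 1.41, 8.06 and 10.7 CPM in remaining wells (log2 difference 1.62 ± 0.28, adjusted p = 0.000277). Cdkn1b (p27) stood at 49.8, 88.1 and 102 CPM in S-phase wells and 60.02, 73.0 and 80.3 CPM in remaining wells and did not pass the test (adjusted p = 0.963).

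**Figure D3:**
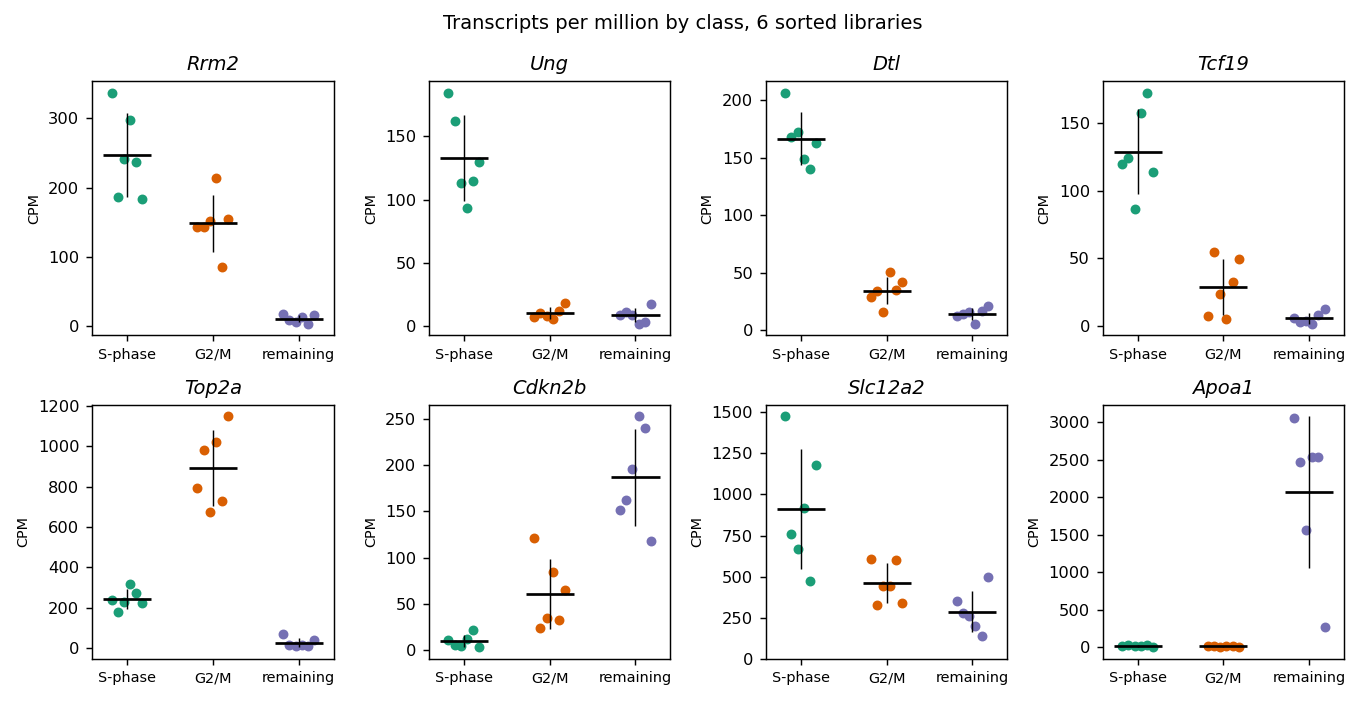
Levels in CPM (linear y axes, per library total) of 8 genes outside the selection in S-phase, G2/M and remaining wells; each point is 1 of 6 sorted libraries, horizontal lines are means and vertical lines are SD. The means of Rrm2, Dtl and Tcf19 fall stepwise across the 3 classes, Ung is low in both other classes, Top2a is highest in G2/M wells, Cdkn2b and Apoa1 are highest in remaining wells, and the ranges of Slc12a2 overlap.

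Repair and chromatin genes were higher as well. Of 28 listed genes of DNA repair and checkpoint control, 15 passed the filter on low values, 14 were higher and none lower. Members that passed through the S-phase wells alone, Ung among them, were bound to be high there, so the count is no support. Ung, which removes uracil from DNA, stood at 93.5, 123 and 185 CPM in S-phase wells, at 5.61, 9.01 and 18.3 CPM in G2/M wells and at 1.93, 8.99 and 17.7 CPM in remaining wells (log2 difference to remaining wells 2.88 ± 0.20, adjusted p = 3.17e-08). Of 26 tested genes of chromatin assembly and maintenance, 24 were higher and none lower, among them Dnmt1, the maintenance DNA methyltransferase, at 163, 250 and 478 CPM in S-phase wells and 27.0, 30.8 and 54.4 CPM in remaining wells.

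Replication-dependent histone genes, whose main transcripts lack a poly(A) tail, were nearly invisible to this assay. Only 2 of 60 passed the filter, and both were lower in S-phase wells. Hist1h2bc stood at 54.3, 83.6 and 131 CPM in S-phase wells and at 214, 311 and 368 CPM in remaining wells, without overlap (log2 difference -1.82 ± 0.17, adjusted p = 6.90e-07). Hist1h1c differed by -1.40 ± 0.23 (adjusted p = 0.00016). Slbp, which binds the stem-loop that ends replication-dependent histone mRNA, was higher, at 262, 320 and 417 CPM in S-phase wells and 52.9, 69.6 and 93.7 CPM in remaining wells.

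Ribosome genes were higher by less. Of 72 tested cytosolic ribosomal protein genes, 64 were higher and none lower, with a median log2 difference of 0.45, and of 31 genes of ribosome biogenesis 25 were higher and none lower, with a median of 0.94. Ribosomal protein mRNA made up a median 16.3% of transcripts in S-phase wells, 14.3% in G2/M wells and 11.3% in remaining wells. Npm1 (nucleophosmin) stood at 1749, 1998 and 2237 CPM in S-phase wells and at 658, 803 and 1154 CPM in remaining wells (log2 difference 1.11 ± 0.10, adjusted p = 2.67e-07).

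Although Lgr5 was absent by choice, crypt-base genes were not. Of 19 tested Wnt targets and crypt-base stem genes, 16 were higher in S-phase wells than in remaining wells and none lower. Smoc2, a stem cell marker, stood at 159, 230 and 273 CPM in S-phase wells, at 96.8, 165 and 203 CPM in G2/M wells and at 32.8, 72.2 and 93.2 CPM in remaining wells (log2 difference to remaining wells 1.39 ± 0.19, adjusted p = 2.57e-05). Cdca7, a chromatin factor enriched in stem cells, stood at 239, 310 and 362 CPM in S-phase wells, at 86.4, 141 and 208 CPM in G2/M wells and at 37.6, 79.3 and 102 CPM in remaining wells, with S-phase wells apart from both. The Notch target Hes1 was higher too, at 173, 258 and 324 CPM in S-phase wells and 75.6, 108 and 154 CPM in remaining wells (log2 difference 0.96 ± 0.15, adjusted p = 0.000142). Of 5 tested Notch pathway genes, 2 were higher (Nrarp and Hes1) and 3 were not called. Against G2/M wells none of 7 was called.

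Lgr5-positive wells that reached the same S-phase share offer a nearer neighbour. There were 79 of them, with no Atoh1, under the goblet limit and below the G2/M limit, and their median depth was 10544 transcripts, against 8326 in the S-phase wells. In the same 6 libraries Smoc2 averaged 217 ± 47.6 CPM in the S-phase wells and 376 ± 43.1 CPM in the Lgr5-positive wells, and Cdca7 averaged 303 ± 45.1 and 540 ± 73.4 CPM in them (SD, n = 6 each). Ascl2, a stem cell transcription factor, averaged 79.5 ± 38.9 CPM in the S-phase wells and 186 ± 66.9 CPM in the Lgr5-positive wells. Fabp1, an early absorptive gene, averaged 50.5 ± 25.2 CPM in the S-phase wells and 14.6 ± 9.46 CPM in the Lgr5-positive wells. Krt20 averaged 13.3 ± 10.1 CPM in the S-phase wells and 32.8 ± 45.2 CPM in the Lgr5-positive wells. The ranges of Smoc2, Cdca7 and Ascl2 did not overlap, whereas those of Fabp1, Krt20 and the crypt-base gene Rgmb did. None of these differences was tested, and the wells were told apart by Lgr5 itself.

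Genes of differentiated cells were low in S-phase wells. Apoa1, an apolipoprotein of enterocytes, stood at 4.07, 17.7 and 32.3 CPM in S-phase wells and at 264, 2499 and 3053 CPM in remaining wells (log2 difference -6.11 ± 0.28, adjusted p = 4.72e-10). Krt20, a keratin of mature epithelium, stood at 0, 13.9 and 25.2 CPM in S-phase wells, at 34.6, 44.7 and 101 CPM in G2/M wells and at 366, 1058 and 1346 CPM in remaining wells, with all 3 classes apart. Of 24 tested enterocyte markers 23 were lower, and of 13 enteroendocrine and 12 Paneth markers all were lower. Most of these genes passed the filter only through the remaining wells, so their counts are no support for a change in S-phase wells. The 25 enterocyte markers summed to 2250 to 3228 CPM in S-phase wells, 2465 to 3296 CPM in G2/M wells and 7965 to 32488 CPM in remaining wells.

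Fewer genes were called when the remaining wells richest in differentiation markers were left out. Against the 168 remaining wells at or below the median share of differentiation markers, 419 genes were higher (6.19%) and 453 lower (6.70%). Of 42 tested replication genes, 34 were higher, with a median log2 difference of 1.38, and 18 of 29 nucleotide synthesis genes were higher. Rrm2 differed by 3.38 ± 0.22 (adjusted p = 3.60e-09) and Cdkn2b by -2.75 ± 0.26 (adjusted p = 3.60e-07). The difference in Cdkn1a was smaller than against all remaining wells, at -0.94 ± 0.26 (adjusted p = 0.0203). Of the ribosomal protein genes only 4 of 72 were still called (Rps20, Rps27a, Rpl6 and Rps12), and of 19 crypt-base genes 9.

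Of 10 tested immediate-early genes, which respond within minutes to stimulation or handling, 7 were lower in S-phase than in remaining wells (Klf6, Klf4, Btg2, Zfp36, Fos, Junb and Jund). Against the remaining wells low in differentiation markers 1 was lower. Whether handling plays a part was not tested.

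Immune and tuft cell transcripts were scarce in S-phase wells but not absent. The 11 tuft markers summed to 0 to 514 CPM in S-phase wells, 0 to 13.1 CPM in G2/M wells and 84.9 to 449 CPM in remaining wells, and 108 of the 120 S-phase wells had none. The 12 immune markers summed to 130 to 656 CPM in S-phase wells, 164 to 1247 CPM in G2/M wells and 300 to 1625 CPM in remaining wells. The largest S-phase tuft share in 1 well was 0.845% of its transcripts. Most of the immune sum in S-phase wells came from Cd74, an MHC class II chaperone, at 130, 354 and 656 CPM in S-phase wells, 164, 302 and 760 CPM in G2/M wells and 288, 480 and 612 CPM in remaining wells.

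At equal depth S-phase wells showed slightly more genes. After thinning to 2000 transcripts they averaged 1228 ± 23.1 genes per well, G2/M wells 1251 ± 14.4 and remaining wells 1194 ± 19.8 (SD of library medians, n = 6). The difference between S-phase and remaining wells was 33.4 genes, positive in 6 of 6 libraries (exact permutation test over sign changes, two-sided p = 0.03125, the smallest that 6 libraries allow).

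The second comparison sets S phase against G2 and mitosis among dividing wells. Here few genes moved: 95 of 6802 were higher in S-phase wells (1.4%) and 189 were lower (2.78%) at an adjusted p under 0.05 by limma. The higher ones included genes of licensing and repair, and the lower ones included genes of the spindle and kinetochore. Both comparisons use the same S-phase wells and are not independent.

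Ung showed the largest rise, with a log2 difference to G2/M wells of 2.82 ± 0.23 (adjusted p = 1.91e-09), and its G2/M level overlapped that of remaining wells. Ung and Cdc6 passed the filter on low values through the S-phase wells alone and were bound to be high there. The S-phase wells were also chosen by genes of the same kind. Dtl stood at 140, 165 and 206 CPM in S-phase wells, at 15.6, 34.3 and 50.5 CPM in G2/M wells and at 5.78, 15.1 and 21.2 CPM in remaining wells (log2 difference to G2/M wells 2.03 ± 0.20, adjusted p = 6.90e-08). Cdc6, whose promoter is shown above, stood at 24.4, 48.5 and 63.6 CPM in S-phase wells, at 0, 4.57 and 13.6 CPM in G2/M wells and at 0, 0.695 and 6.04 CPM in remaining wells (log2 difference to G2/M wells 1.86 ± 0.31, adjusted p = 0.000135). For both genes S-phase wells lay above both other classes in every library. Of all genes tested against G2/M wells, 2.71% had no overlap between S-phase and G2/M wells.

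Tcf19 (2.00 ± 0.27, adjusted p = 7.78e-06), E2f1 (1.78 ± 0.26, adjusted p = 2.55e-05) and the mismatch repair gene Msh6 (1.75 ± 0.21, adjusted p = 1.13e-06) followed, each higher in 6 of 6 libraries on the log2 scale. Here too E2f1 passed the filter on low values through the S-phase wells alone and was bound to be high there. Slbp was higher as well, at 262, 320 and 417 CPM in S-phase wells and 107, 137 and 145 CPM in G2/M wells (log2 difference 1.24 ± 0.14, adjusted p = 2.77e-07). Other genes of the top 12 were Slfn9, Dscc1, Zfp367, Naf1, Timeless and Chek1, with log2 differences between 1.38 and 1.63. Chek1 codes for the kinase that guards stalled forks, Timeless and Dscc1 for fork proteins.

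Not every replication gene told S phase from G2/M. Of 44 tested, 14 were higher and 1, Dbf4, was lower. Dbf4, the activator of the CDC7 kinase that fires origins, stood at 18.2, 46.1 and 65.2 CPM in S-phase wells and at 81.6, 115 and 202 CPM in G2/M wells (log2 difference -1.34 ± 0.20, adjusted p = 5.13e-05). Tk1 stood at 241, 314 and 363 CPM in S-phase wells and at 172, 336 and 438 CPM in G2/M wells and did not pass (log2 difference -0.05 ± 0.16, adjusted p = 0.922). Of 29 genes of nucleotide synthesis 8 were higher, with Paics of purine synthesis at 293, 374 and 460 CPM in S-phase wells and 100, 138 and 204 CPM in G2/M wells. Rrm2 differed by 0.70 ± 0.16 (adjusted p = 0.00596).

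Cks1b, a CDK subunit, was lower in S-phase than in G2/M wells, at 56.1, 81.2 and 141 CPM in S-phase wells and 139, 184 and 264 CPM in G2/M wells (log2 difference -1.10 ± 0.17, adjusted p = 5.65e-05). Chromatin genes split, with 5 of 28 higher (Slbp, Chaf1b, Dnmt1, Hat1 and Set) and 4 lower (H2afx, Hmgb2, Lmnb1 and H2afz). Of 13 cohesin and condensin genes, 6 were lower and none higher. Rad21, a cohesin subunit, stood at 242, 314 and 424 CPM in S-phase wells and 553, 602 and 730 CPM in G2/M wells (log2 difference -0.96 ± 0.11, adjusted p = 9.99e-07).

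Of 47 tested mitosis genes that were not used for selection, 46 were lower. The G2/M wells were chosen by genes of the same kind. Members could also pass the filter on low values through those wells alone. The count is therefore no support for a change in S-phase wells. Hmmr, a spindle protein, stood at 0, 13.2 and 22.7 CPM in S-phase wells, at 122, 208 and 238 CPM in G2/M wells and at 5.78, 14.2 and 18.1 CPM in remaining wells (log2 difference to G2/M wells -3.28 ± 0.23, adjusted p = 1.32e-10). Cenpa, the centromeric histone H3 variant, stood at 24.9, 81.3 and 104 CPM in S-phase wells, at 406, 501 and 630 CPM in G2/M wells and at 65.6, 99.1 and 121 CPM in remaining wells. S-phase and remaining wells overlapped for both genes.

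Top2a (topoisomerase II alpha) lay between, at 181, 233 and 319 CPM in S-phase wells, 677, 888 and 1149 CPM in G2/M wells and 8.91, 17.8 and 69.5 CPM in remaining wells. Ccnb2 (cyclin B2) was lower in S-phase wells than in either class, at 43.5, 56.7 and 115 CPM in S-phase wells, 329, 366 and 434 CPM in G2/M wells and 81.0, 104 and 159 CPM in remaining wells. Its log2 difference was -2.40 ± 0.15 to G2/M wells (adjusted p = 3.04e-11) and -0.83 ± 0.18 to remaining wells (adjusted p = 0.0019). Of 30 mitosis genes tested against remaining wells, 18 were higher and 4 lower, the 4 being Ccnb2, Arl6ip1, Cenpa and Tubb4b. The highest G2/M shares had been removed before S-phase wells were chosen.

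**Figure D4:**
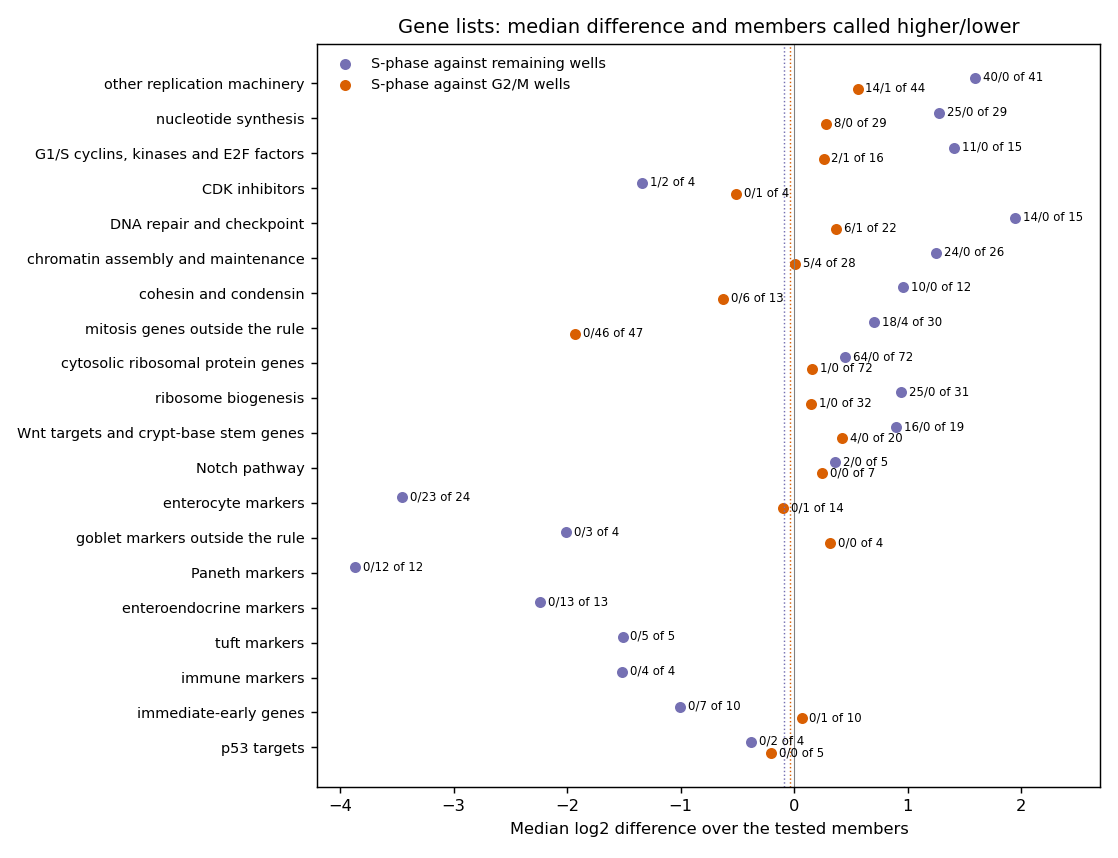
For each gene list, points give the median log2 difference over its tested members (x axis) for S-phase against remaining wells and for S-phase against G2/M wells; labels give members called higher/lower of those tested, and dotted lines are the medians of all tested genes. Against G2/M wells, which were chosen by mitosis genes, the median of replication machinery lies above 0 and that of mitosis genes below it. The medians of enterocyte markers are far below 0 against remaining wells and near 0 against G2/M wells. Lists with under 3 tested members are left out.

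Of 20 tested crypt-base genes, 4 were higher in S-phase than in G2/M wells (Ascl2, Cdca7, Slc12a2 and Aqp4) and none lower. Slc12a2, a chloride cotransporter high in crypts, stood at 475, 839 and 1479 CPM in S-phase wells, at 327, 443 and 609 CPM in G2/M wells and at 139, 268 and 500 CPM in remaining wells (log2 difference to G2/M wells 0.91 ± 0.16, adjusted p = 0.000411). All 3 ranges overlapped, and 5 of 6 libraries had more in S-phase than in G2/M wells. Ascl2 (log2 difference 1.07 ± 0.28, adjusted p = 0.0195) was higher in 5 of 6 libraries and lost its call under 10 of 21 alternatives. Smoc2 did not pass (adjusted p = 0.117). Of 72 ribosomal protein genes 1 was called, Rps9, and Cdkn2b (-1.71 ± 0.30, adjusted p = 0.000353) and Krt20 (-1.52 ± 0.31, adjusted p = 0.00171) were lower in S-phase than in G2/M wells. Cdkn2b and Krt20 passed the filter on low values through the G2/M wells alone.

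Among themselves, S-phase wells spread widely. The share of the 11 selecting genes ran up to 0.765%, and that of the 48 other replication genes ran from 0.043% to 0.638%. Over the 120 wells the 2 shares had a Spearman rho of 0.63, as a description of wells that share libraries and that count both shares from the same transcripts. G2/M genes made up a median 0.052% and were at 0 in 18 wells. After thinning, Rrm2 was seen in 39.2% of S-phase wells, 28.3% of G2/M wells, 3.27% of remaining wells and 2.53% of goblet-rich wells. Dut was seen in 58.3% of S-phase wells, 28.3% of G2/M wells, 9.82% of remaining wells and 4.43% of goblet-rich wells. Without thinning, Rrm2 was seen in 70.8% of S-phase wells, 67.5% of G2/M wells and 9.52% of remaining wells.

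The picked plates took no part in choosing the sorted wells, but their own wells were divided by the same 11 S-phase genes. Any gene that varies with those across wells is bound to differ here too, and the test speaks only to recurrence between libraries. Each well there held several cells, and 65 eligible wells that reached the G2/M share were not set aside, so that the background differs from that of the sorted plates. Of 264 eligible picked wells, 36 reached the S-phase share without reaching the G2/M share (10, 11 and 15 in replicates 1 to 3), and 228 did not. Of 6505 genes, 4 were higher in the S-high wells (0.0615%) and 105 lower (1.61%) by limma. The higher genes included Ung, Fam111a and Paics. Scaled levels of Ung were 81.6, 127 and 125 CPM in the S-high wells and 5.55, 18.1 and 17.3 CPM in the other wells of the same 3 libraries (log2 difference 2.38 ± 0.49, adjusted p = 0.00837). Ung passed the filter on low values through the S-high wells alone. Paics stood at 340, 302 and 327 CPM in S-high wells and at 83.4, 113 and 98.4 CPM in the others (log2 difference 1.63 ± 0.32, adjusted p = 0.00557). Neither gene overlapped between the classes, and nor did 16.2% of all genes tested in these libraries.

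Without the library block limma called no gene higher and 6 lower in the picked plates, with 600 genes at an unadjusted p under 0.05. The lowest log2 differences among the 105 lower genes were those of Fabp6 (-4.70), Guca2b (-4.67) and Apoa1 (-4.44), and Guca2b was at 0 in the S-high wells of all 3 libraries, so that its fitted value depends on the pseudocount. The 105 included 16 enterocyte and 12 Paneth markers, 3 immediate-early genes (Dusp1, Junb and Egr1) and the mitosis genes Cenpa and Tubb4b. Of 970 genes that were called higher in sorted S-phase wells and tested here, 58.8% had a positive difference and 20.5% were higher in all 3 picked libraries, against 32.5% and 8.19% of all 6505 tested genes. Of 1339 called lower, 50.8% were lower in all 3, against 25.4% of all genes. Sorted and picked wells were divided by the same genes, so these shares are not independent support. The median over all genes was -0.26 here, and -0.06 with library totals.

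**Figure D5:**
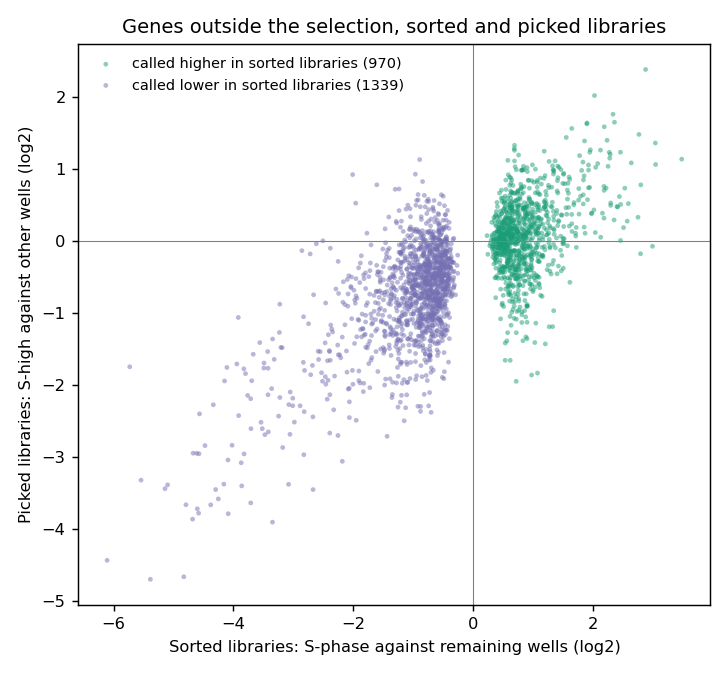
Each point is a gene outside the selection that was called in the sorted libraries (970 higher, 1339 lower); the x axis gives its log2 difference between S-phase and remaining sorted wells, the y axis that between S-high and other picked wells, those past the G2/M share included. Most genes that were lower in sorted S-phase wells lie below 0 on the y axis, whereas of those called higher 58.8% lie above it.

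The 5 GK5a libraries were set against replicate 7, the single GK5b library with enough wells, so that the test has no spread within GK5b and cannot show how far the codes differ. The signed log2 difference between S-phase and remaining wells was higher in GK5a than in replicate 7 for 8 of 6877 genes (0.116%) and lower for 13 (0.189%). The 13 included the enterocyte genes Fabp2, Lct and Vil1, and the 8 included Kap, Miox, Slc34a1, Keg1 and Acsm2, genes known from kidney. In 2 remaining wells of replicate 7 these 5 genes made up 5.62% and 3.36% of transcripts, and without those wells limma called no gene higher and 19 lower, with 444 genes at an unadjusted p under 0.05. An effect of the code and one of the single plate cannot be told apart.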

How the data were processed

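CEL-seq2 libraries of 7 sorted and 3 picked plates were deposited as tables of genes by wells with ERCC spike-ins. The submitters' processing notes name BWA 0.6.2-r126 and the build mm10. How transcripts were counted, with or without strand, and whether wells were filtered is not given in the sources used here. Values as deposited are none of the usual units: every one maps back to a whole number of barcodes seen, corrected for 4096 possible barcodes, and is here called a transcript. Intervals cover counting error only.

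Wells of at least 2000 transcripts were used (144 to 256 per sorted library and 107 to 156 per picked library, 735680 to 4820614 transcripts in them). Transcripts were summed per library and class, and scaled by TMM (own implementation). The test was limma 3.58.1 in R 4.3.3, run on log2(CPM + 10) with the library as a block, for genes with a mean of at least 20 CPM. P-values were adjusted by Benjamini-Hochberg over all genes tested and called under 0.05. Printed CPM are per library total unless called scaled, so they can differ from the scaled fold changes. Library 6 had too few S-phase wells and entered no test. Libraries were blocked because both classes of wells come from the same plate. No doublet caller was run. The limma step was tested on simulated data.

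The members and gene lists were chosen with earlier results of these data known. Named genes were the 12 highest and 12 lowest called genes with 1 direction in every library, and up to 4 per list with the smallest p. Cd74, Rrm1, Cdc6 against remaining wells and the genes given beside Lgr5-positive wells were singled out after their values were seen. So were Rrm2, Tk1, Top2a and Smoc2 against G2/M wells. Ccnb2 against remaining wells was also named outside that rule. Promoter sequences came from RefSeq, GRCm38.p6. Alternatives covered scaling, pseudocount, filter, weights, block, choice of wells and each library left out; leaving out kidney-gene-rich wells was chosen after seeing the data. One result is not reported here.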

Additional observations from a re-analysis of the deposited data

Results flagged for a closer look

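Of 50 values checked for a library far from the others, 1 stood apart, and chance marks about 1 in 20 such groups. It was the difference in Lct (lactase) between S-phase and remaining wells, at -1.34 on the log2 scale in 1 of the 6 libraries, replicate 7. Lct in remaining wells stood at 15.9 CPM there and at 255 to 717 CPM in the GK5a libraries. The code difference in Lct given below rests on this same library.

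The log2 difference between S-phase and remaining wells in the 5 GK5a libraries differed from that in replicate 7 for 21 genes by limma's interaction term. Replicate 7 is the single GK5b library tested, so the term takes its spread from GK5a alone and does not separate the code from the plate. Values are GK5a minus GK5b on the log2 scale. The differences were positive for Gpx3 (6.97), Slc34a1 (6.39), Kap (6.22), Acsm2 (5.64), Miox (5.48), Timp3 (5.19), Keg1 (4.72) and Fxyd2 (4.19). They were negative for Cyp3a25 (-4.55), Slc34a2 (-4.13), Lct (-3.87), Aldh1a1 (-3.72), Fabp2 (-3.63), Ifi27l2b (-3.05), Dpp4 (-2.67), Pepd (-2.34), Acsl5 (-2.27), Npc1l1 (-1.97), AI747448 (-1.94), Vil1 (-1.90) and Tm4sf5 (-1.68).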

How the results depend on the processing

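Between S-phase and remaining wells, 1070 genes were higher and 1621 lower. A filter at 50 CPM gave 689 higher, the top 60 wells 536, and remaining wells low in differentiation markers 419 higher and 453 lower. In that last setting Itln1 (0.49) and Spink4 (0.18) turned positive without passing the test. Itln1 is among the Paneth markers that helped to choose those wells, so its turn is tied to that choice. Leaving out 1 library gave 838 to 1035 higher and 1349 to 1614 lower. Genes per thinned well differed by 32.8 in GK5a alone and 29.0 to 37.9 without 1 library, each at an exact permutation p of 0.0625, the smallest that 5 libraries allow.

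Between S-phase and G2/M wells, the 95 higher genes became 52 with no filter, 60 in GK5a alone, and 52 to 99 without 1 library (52 without replicate 3, 58 without replicate 4 and 60 without replicate 7), with 164 to 189 lower.

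In the picked plates (4 higher, 105 lower), a pseudocount of 1 gave 0 and 11 by limma (652 genes at an unadjusted p under 0.05), library totals 8 and 65, and a filter at 50 CPM 2 higher. Leaving out 1 library gave 2 to 7 higher and 45 to 131 lower: 2 and 45 without replicate 1, 7 higher without replicate 2, and 2 higher without replicate 3. Between codes (8 and 13), a pseudocount of 1 gave 3 and 2, a filter at 50 CPM 3 higher, and leaving out 2 kidney-gene-rich wells 0 higher and 19 lower (limma, 444 genes at an unadjusted p under 0.05).

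With no replicate block, the pairing of classes within a library was dropped: 59 genes were higher between S-phase and G2/M wells, and 0 higher and 6 lower in the picked plates (limma, 600 genes at an unadjusted p under 0.05). The cause of these changes was not tested. A fit of GK5b alone was not run, since replicate 7 is its only library with enough S-phase wells. Of single named genes, 2018 of 2063 values against remaining wells and 1690 of 1792 against G2/M wells kept their direction and side of the threshold.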
